A study of Mus musculus with 6 samples.

Results

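Heat shock proteins and their partner chaperones were examined in mouse embryonic stem (ES) cells and in the myogenic cells derived from them. The genes were chosen by name from a list of 33 covering the Hsp70 and Hsp110 families, Hsp90, the small heat shock proteins, the mitochondrial chaperonin, Dnaj co-chaperones, heat shock factors, Bag3 and Serpinh1. A gene entered when a row of the value table carried its symbol alone. That held for 29 of the 33, on 35 of 41345 rows, out of 22180 named genes in all. Dnaja1 and Hspb2 stood only in rows shared with another gene, no row used here carried Hsp90ab1 or Hsf1, and these 4 were not analysed here. The study profiled 3 samples of undifferentiated ES cells and 3 of Pax7-GFP cells, with 1 single-colour array per sample. The Pax7-GFP cells had been differentiated for 3 weeks toward skeletal muscle and then sorted for a green fluorescent reporter of Pax7, a transcription factor of muscle progenitors. The ES cells are labelled only as pluripotent and undifferentiated, and no genotype beyond the reporter, no strain and no drug is given. Each array measured many cells together, so a change in the share of cells of one type and a change of RNA per cell cannot be told apart.

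Molecular chaperones bind unfolded proteins and help them reach or regain their shape. Hsp70 proteins hold short exposed stretches in cycles driven by ATP, Dnaj proteins deliver the clients, and exchange factors such as the Hsp110 proteins and Bag3 release them. Hsp90 matures kinases and hormone receptors, small heat shock proteins keep damaged proteins soluble, and the Hspd1 and Hspe1 chamber folds proteins inside mitochondria. Heat shock factors switch on many of these genes through the heat shock element, a repeat of the unit GAA in alternating orientation, whereas chaperones of the endoplasmic reticulum (ER) answer to the ER stress element. In muscle, alpha B crystallin (Cryab) and Bag3 are known for protecting the contractile apparatus.

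The stretches below show those elements in promoters of genes whose values are described further on. RefSeq promoter windows (GRCm38.p6, 250 bases before to 50 after a gene's start, 300 in all) were matched by symbol for 24 of the 29 genes. Capitals mark the letters of the element, and sequences are written 5′ to 3′ on the gene's strand. The first 3 belong to genes that were lower in Pax7-GFP cells. They are Hspe1 at chr1:55088053-55088082 (plus strand), Hsph1 at chr5:149636287-149636316 (minus strand) and Hspb1 at chr5:135887801-135887830 (plus strand).
Hspe1: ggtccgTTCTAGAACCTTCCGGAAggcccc
Hsph1: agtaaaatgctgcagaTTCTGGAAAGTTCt
Hspb1: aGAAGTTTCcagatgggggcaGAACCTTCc

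Hspd1 and Hspe1 are neighbours read in opposite directions. One of the Hspd1 windows overlapped the Hspe1 window by 285 bases and held the same element. The next 2 are the 150 bases before the start of the stress-inducible Hsp70 genes Hspa1a, at chr17:34972157-34972306, and Hspa1b, at chr17:34959239-34959388, both on the minus strand. These stretches differ in 1 base of 150, and the windows in 4 of the whole 300 (98.7% identical). The transcripts and the probes were not compared.
Hspa1a: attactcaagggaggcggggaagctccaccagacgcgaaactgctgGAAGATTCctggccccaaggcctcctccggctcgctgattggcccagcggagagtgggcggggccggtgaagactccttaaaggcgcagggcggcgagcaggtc
Hspa1b: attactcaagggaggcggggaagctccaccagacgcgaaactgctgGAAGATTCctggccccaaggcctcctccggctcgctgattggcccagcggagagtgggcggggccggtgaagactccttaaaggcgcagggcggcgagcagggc

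The ER chaperones Hspa5, at chr2:34772019-34772048 (plus strand), and Hsp90b1, at chr10:86705633-86705662 (minus strand), carried the ER stress element, CCAAT and CCACG spaced by 9 bases.
Hspa5: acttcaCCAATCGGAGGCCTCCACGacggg
Hsp90b1: acaagcCCAATCGCAAGGAGCCACGcttcg

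A pair of inverted heat shock units, GAANNTTC or TTCNNGAA, was found in promoters of 12 of the 24 matched genes, against 17.0% of all 27025 genes in the table. It stood in 3 of 3 matched genes called lower, in 2 of 4 called higher (Bag3 and Hspb6, not printed above) and in 7 of 17 not called. A run of 3 such units, which contains the shorter form, stood in Hspd1, Hspe1 and Hsph1, against 0.662% of all genes. In Hsph1 the run lay after the gene's start. The ER stress element stood in Hspa5 and Hsp90b1, against 0.137%. Both strands were searched. These are matches of letters and were not tested as binding sites.

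The chaperone genes did not move together. Cryab, Serpinh1, Bag3, Dnajb9 and Hspb6 rose in Pax7-GFP cells, while Hsph1, Hspb1, Hsp90aa1 and Hspe1 fell. Levels are log2 signals, and each change is the Pax7-GFP mean minus the ES mean with the moderated standard error (SE) of limma. A gene was called when its p, adjusted over all 22180 genes, was below 0.05 and the difference reached 2-fold, which is 1 on the log2 scale. Of the 29 genes, 9 were called, where 14.5% of all genes were. Most of the 29 were bright, and 25 lay at or above the median signal. In a fit of the 11090 genes at or above it, 9 of those 25 were called, among 2734 genes in all. The 5 higher genes stand beside 7.34% of all genes called higher, and the 4 lower ones beside 7.15% called lower. Another 11 passed the adjusted p without reaching 2-fold, 5 of them higher and 6 lower, and 9 passed neither. In all, 20 of 29 passed the adjusted p, against 41.1% of all genes, and they divided into 10 higher and 10 lower (19.7% and 21.4% of all genes). The median change was 0.095, beside 0.024 over all genes. Arrays of the groups did not overlap in 23 of 29 genes, against 51.9% of all genes.

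**Figure D1:**
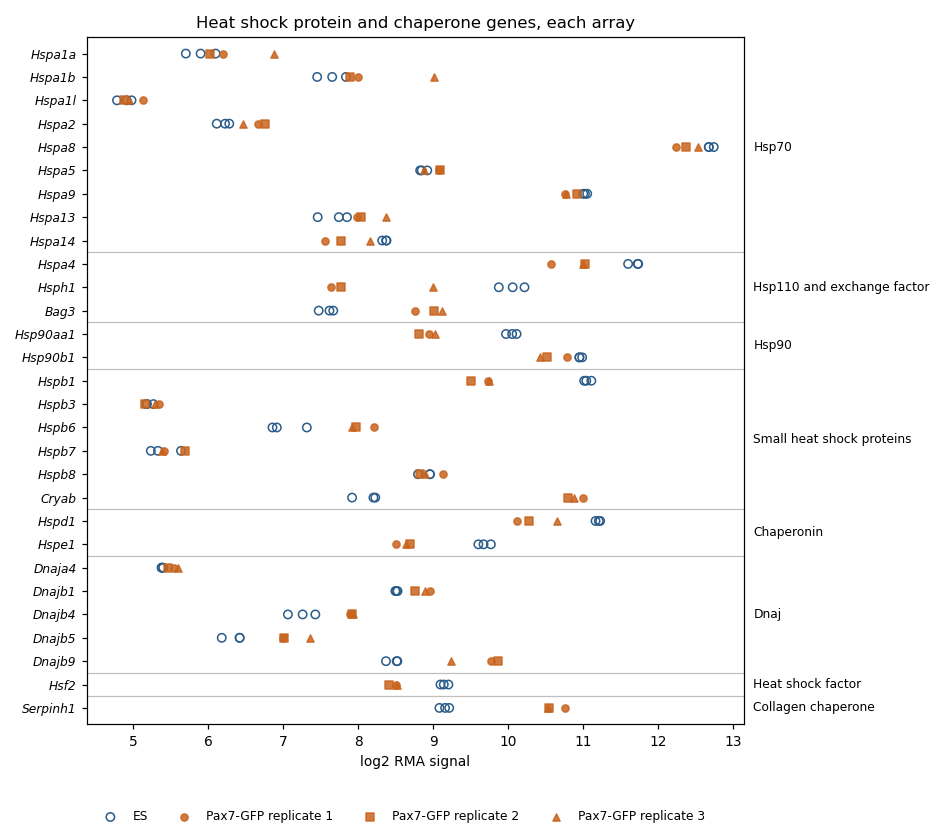
Log2 RMA signal (x axis) of each of the 29 genes (rows, grouped by role) in every array, with ES arrays as open circles and the Pax7-GFP replicates as filled circles, squares and triangles. Cryab lies between 7.92 and 8.23 in ES arrays and between 10.81 and 11.00 in Pax7-GFP arrays, and the triangle of replicate 3 stands apart for Hsph1, Hspa1a and Hspa1b.

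**Figure D2:**
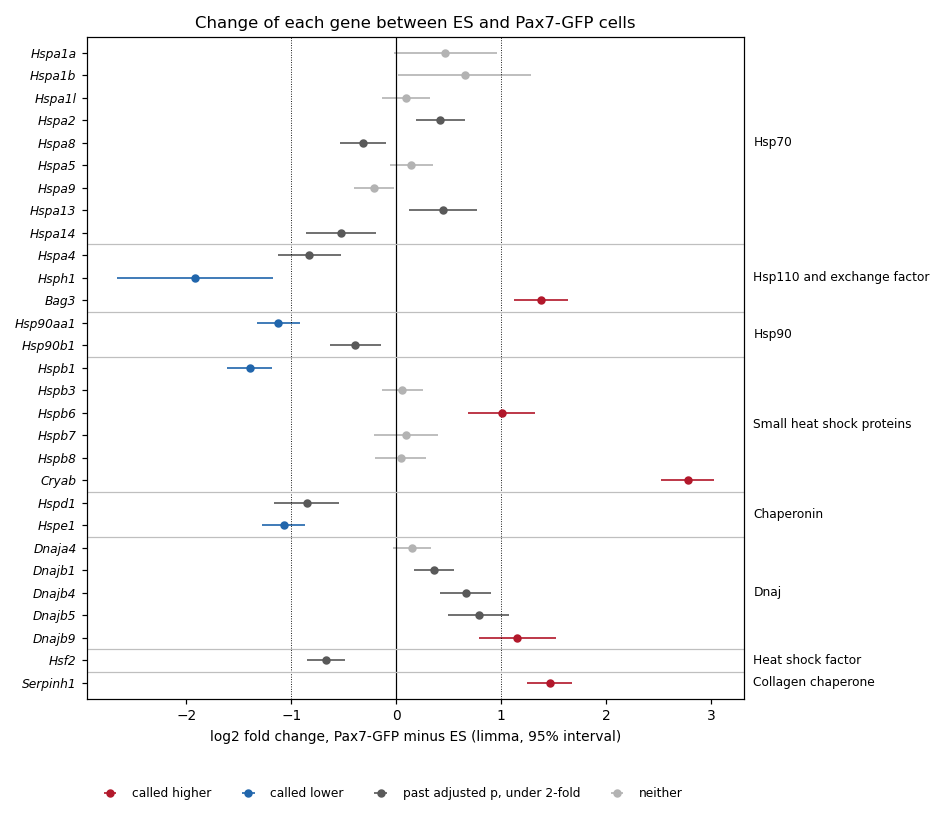
Log2 fold change, Pax7-GFP minus ES, of each gene with its 95% interval from limma, coloured by whether it was called (solid line at 0, dotted lines at a 2-fold difference). The small heat shock proteins and the Hsp110 and Bag3 group each hold calls in both directions, and no Hsp70 gene is called.

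Among the 9 Hsp70 genes, 0 were called, 4 passed the adjusted p alone and 5 passed neither (limma). Of all genes, 14.5% were called and 41.1% passed the adjusted p, close to the 44.4% of Hsp70 genes that passed it. At an unadjusted p below 0.05 there were 6 Hsp70 genes, the further 2 being Hspa1b and Hspa9. Hspa8, the constitutive cytosolic Hsp70, read 12.74, 12.68 and 12.68 in ES and 12.24, 12.37 and 12.53 in Pax7-GFP arrays. It lay above 99.9% of genes by mean signal, and its change was small, at -0.32 (SE 0.095, limma adjusted p = 0.0265). With a replicate block in the fit it did not pass (limma adjusted p = 0.0618). Nor did it when any single array except Pax7-GFP replicate 3 was left out (limma adjusted p from 0.0527 to 0.0945). All ES arrays were above all Pax7-GFP arrays. The other 3 probe sets of Hspa8 gave -0.26, -0.24 and -0.22 and did not pass the adjusted p. Hspa2, best known from male germ cells, read 6.11, 6.28 and 6.22 in ES and 6.67, 6.75 and 6.46 in Pax7-GFP arrays, a change of 0.42 (SE 0.10, limma adjusted p = 0.0101). The log2 difference between Hspa8 and Hspa2 within an array therefore went from 6.50 ± 0.12 to 5.76 ± 0.28 (SD, n = 3 each). Its groups did not overlap, and the two-sided exact permutation test gave p = 0.10, the smallest that 3 against 3 arrays allow (adjusted p = 0.13 over the 4 pairs of genes that could be compared).

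The stress-inducible copies did not pass the adjusted p in the fit by group alone with all arrays weighted equally. They were uneven among Pax7-GFP arrays. Hspa1a read 5.70, 5.90 and 6.10 in ES and 6.20, 6.02 and 6.87 in Pax7-GFP arrays. Hspa1b read 7.65, 7.84 and 7.45 in ES and 8.0, 7.89 and 9.01 in Pax7-GFP arrays. For both, replicate 3 was the high array, and without it their changes were 0.21 and 0.30 in place of 0.47 and 0.65 (limma adjusted p = 0.274 and 0.118, against 0.121 and 0.0954 with all arrays). Other settings moved them the other way. With array weights the changes were 0.60 and 0.88 (limma adjusted p = 0.0344 and 0.0159). Without Pax7-GFP replicate 2 they were 0.64 and 0.86 (limma adjusted p = 0.0442 and 0.0428), and without replicate 1 they were 0.55 and 0.80 (limma adjusted p = 0.0846 and 0.0483). The ES and Pax7-GFP arrays overlapped for Hspa1a and did not for Hspa1b. One further row carried both symbols and was left out. Whether the probe sets separate these genes was not tested, so the signals are uncertain to either gene. The difference between them within an array changed by -0.18 (exact permutation p = 0.60, adjusted p = 0.60). Hspa1l, their neighbour, which is expressed mainly in testis, stayed between 4.78 and 5.13 in all 6 arrays, and its probe sets gave changes of 0.093 and -0.17.

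Of the organelle Hsp70 genes, Hspa5 (BiP, the ER form) read 8.83, 8.85 and 8.92 in ES and 9.07, 9.09 and 8.87 in Pax7-GFP arrays. The groups overlapped and the change of 0.15 (SE 0.090) did not pass (limma adjusted p = 0.252). Hspa9 (mortalin, the mitochondrial form) had a change of -0.21 (SE 0.082, limma adjusted p = 0.0754), with means of 11.03 and 10.82. Hspa13, an ER-associated member, stood at 0.45 and Hspa14, which works at the ribosome, at -0.52, both past the adjusted p and short of 2-fold. Without Pax7-GFP replicate 3 they stood at 0.33 (adjusted p = 0.0915) and -0.69 (adjusted p = 0.00132). Hspa13 also did not pass without ES replicate 1 or 3 (limma adjusted p = 0.117 and 0.0706). Hspa14 did not pass without ES replicate 1, 2 or 3 (limma adjusted p = 0.0528, 0.0660 and 0.0631). Without Pax7-GFP replicate 2 it did not pass either (limma adjusted p = 0.0516).

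Exchange factors of Hsp70 moved in opposite directions. Hsph1, an Hsp110 protein, read 9.88, 10.06 and 10.22 in ES and 7.64, 7.77 and 9.0 in Pax7-GFP arrays. It fell by 1.92 (SE 0.32), 3.78-fold, with limma adjusted p = 0.00153, the largest fall among the 29 genes. All Pax7-GFP arrays were below all ES arrays, but replicate 3 lay more than 1 log2 unit above the others. Without it the change was -2.35 (limma adjusted p = 1.04e-05). Hspa4, the related Hsp110 protein, read 11.60, 11.74 and 11.73 in ES and 10.57, 11.02 and 10.99 in Pax7-GFP arrays, a change of -0.83 (SE 0.13, limma adjusted p = 0.00102) that was short of 2-fold. Bag3, which couples Hsp70 to small heat shock proteins and to autophagy of damaged muscle filaments, read 7.47, 7.67 and 7.62 in ES and 8.76, 9.01 and 9.12 in Pax7-GFP arrays. It rose by 1.38 (SE 0.11), 2.60-fold, with limma adjusted p = 2.26e-05 and no overlap between groups.

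Both measured Hsp90 genes were lower. Hsp90aa1, the stress-inducible cytosolic form, read 10.05, 10.11 and 9.97 in ES and 8.94, 8.81 and 9.03 in Pax7-GFP arrays. It fell by 1.12 (SE 0.090), 2.18-fold, with limma adjusted p = 2.19e-05, and all Pax7-GFP arrays lay below all ES arrays. Hsp90b1 (Grp94, the ER form) read 10.95, 10.99 and 10.95 in ES and 10.78, 10.52 and 10.43 in Pax7-GFP arrays. Its change of -0.39 (SE 0.10, limma adjusted p = 0.0172) was short of 2-fold, and without replicate 3 it was -0.31 and no longer past the adjusted p (0.0534). Hspa5 and Hsp90b1, the ER members of the 2 families, were compared within arrays, by a test that cannot pass with 3 arrays per group. Their log2 difference averaged -2.10 ± 0.061 over ES arrays and -1.57 ± 0.14 over Pax7-GFP arrays (SD, n = 3 each), without overlap (exact permutation p = 0.10, adjusted p = 0.13).

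The small heat shock proteins held the largest rise and the second largest fall of the 29 genes. Cryab read 7.92, 8.23 and 8.20 in ES and 11.00, 10.81 and 10.87 in Pax7-GFP arrays. It rose by 2.78 (SE 0.11), 6.85-fold, with limma adjusted p = 3.82e-07, and the groups were far apart. A second, dimmer probe set of Cryab, from 5.91 to 7.07 by group mean, gave 1.16 (SE 0.083, limma adjusted p = 1.16e-05), so the direction was shared and the size was not. Hspb6 (Hsp20), abundant in muscle, read 6.86, 7.31 and 6.91 in ES and 8.21, 7.97 and 7.92 in Pax7-GFP arrays. It rose by 1.0 (SE 0.14, limma adjusted p = 0.000521), which is at the 2-fold line, and stood below that line at 0.92 without ES replicate 1, 0.95 without ES replicate 3 and 0.92 without Pax7-GFP replicate 1. Hspb1 (Hsp25), a widely expressed actin-associated member, went the other way. It read 11.11, 11.04 and 11.02 in ES and 9.74, 9.50 and 9.74 in Pax7-GFP arrays, and fell by 1.40 (SE 0.094), 2.63-fold, with limma adjusted p = 8.20e-06. Its dimmer probe set gave -0.71 (SE 0.079), past the adjusted p and short of 2-fold.

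The other 3 measured small heat shock proteins did not pass the test. Hspb8, the partner of Bag3, read 8.80, 8.96 and 8.96 in ES and 9.14, 8.83 and 8.89 in Pax7-GFP arrays, a change of 0.046 (95% interval -0.20 to 0.29). Hspb7, known from heart and skeletal muscle, stayed between 5.23 and 5.69 in the 6 arrays (change 0.095, 95% interval -0.21 to 0.40). Hspb3, known from skeletal muscle, stayed between 5.16 and 5.35 (change 0.059, 95% interval -0.14 to 0.25). The groups overlapped for all 3, and Hspb3 and Hspb7 lay below the median gene, at 6.12. No detection calls accompany the values, so whether these signals are background is not known.

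The mitochondrial chaperonin was lower in both parts. Hspe1, its lid, read 9.60, 9.77 and 9.67 in ES and 8.51, 8.69 and 8.63 in Pax7-GFP arrays and fell by 1.07 (SE 0.089, limma adjusted p = 2.61e-05). Hspd1, its barrel, read 11.17, 11.21 and 11.23 in ES and 10.11, 10.28 and 10.66 in Pax7-GFP arrays. Its change of -0.85 (SE 0.13, limma adjusted p = 0.00107) was short of 2-fold and reached it, at -1.01, without Pax7-GFP replicate 3. The groups did not overlap for either gene. The log2 difference between Hspd1 and Hspe1 went from 1.52 ± 0.069 to 1.74 ± 0.25 (SD, n = 3 each; exact permutation p = 0.10, adjusted p = 0.13), and its change of 0.22 was 0.076 without replicate 3.

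Of 5 measured Dnaj genes on the list, 4 passed the adjusted p higher and 0 lower (limma), against 19.7% and 21.4% of all genes. At an unadjusted p below 0.05 there were also 0 lower. This did not extend to Dnaj genes outside the list. Dnajc6 was called lower at -3.07. Dnajc8, Dnaja3, Dnajb11, Dnajb6, Dnajc7 and Dnaja2 passed the adjusted p lower, at -0.75 to -0.38. Dnajb14 and Dnajc3 passed it higher, at 0.60 and 0.64, and Dnajb2, Dnajb12 and Dnajc5 did not pass. Dnajb9 (ERdj4), a co-chaperone inside the ER, read 8.37, 8.51 and 8.52 in ES and 9.78, 9.86 and 9.24 in Pax7-GFP arrays. It rose by 1.16 (SE 0.16), 2.23-fold, with limma adjusted p = 0.000502, and replicate 3 was the lowest of the Pax7-GFP arrays. Dnajb5, Dnajb4 and Dnajb1 (Hsp40), cytosolic partners of Hsp70, had changes of 0.79, 0.66 and 0.36, with limma adjusted p = 0.00109, 0.00106 and 0.00826, and their groups did not overlap. Dnaja4 was dim, between 5.38 and 5.60, and its change of 0.15 did not pass (adjusted p = 0.165), although its groups did not overlap.

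Hsf2, the measured heat shock factor, which acts in development as well as in stress, read 9.14, 9.20 and 9.10 in ES and 8.51, 8.41 and 8.52 in Pax7-GFP arrays. The change of -0.67 (SE 0.080, limma adjusted p = 0.000215) was short of 2-fold, and the groups were well separated.

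Serpinh1 (Hsp47), the ER chaperone of procollagen, read 9.08, 9.16 and 9.21 in ES and 10.76, 10.55 and 10.53 in Pax7-GFP arrays. It rose by 1.46 (SE 0.093), 2.76-fold, with limma adjusted p = 5.66e-06. In a list of 13 measured collagens and collagen-modifying enzymes, 6 were called higher and 0 lower, with a median change of 0.89 (limma, 1 lower at an unadjusted p below 0.05). Over all genes, 7.34% were called higher and 7.15% lower. Col3a1 and Col1a2, fibrillar collagens, rose by 2.53 (SE 0.14) and 2.03 (SE 0.19). Of 5 fibroblast markers (Pdgfra, Col1a1, Dcn, Lum and Twist2), 2 were called higher, Dcn by 3.03 and Pdgfra by 1.48. Col1a1, which is also in the collagen list, and Lum passed the adjusted p alone and higher. Twist2, at -0.13, did not pass. The summed linear signal of the 5 ran from 704 to 969 over ES arrays and from 1440 to 2147 over Pax7-GFP arrays. That sum leaned on Col1a1, the brightest of the 5, with log2 means of 9.37 in ES and 9.90 in Pax7-GFP arrays. RMA gives no gene a 0, and the lowest of the markers, Lum and Twist2, lay between 4.29 and 5.60. The part of such cells in the rise of Serpinh1 was not tested.

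The Pax7-GFP arrays differed from each other more than the ES arrays did, and Hsph1, Hspa1b and Hspa1a showed the widest gaps. Hsp90aa1, also stress-inducible, did not share them, with replicate 3 only 0.15 above the mean of the other 2. The SD was larger among Pax7-GFP than among ES arrays for 25 of the 29 genes, where 72.0% of all genes showed that. Median SDs were 0.084 and 0.15, close to those of all genes (0.084 and 0.14). Replicate 3 exceeded the mean of the other 2 by 1.30 for Hsph1, 1.07 for Hspa1b and 0.76 for Hspa1a on the log2 scale. Among Pax7-GFP SDs of all genes, those of these 3 lay at percentiles 99.8, 99.2 and 96.9. A gap above 0.5 in that direction occurred in 3 of 29 genes, and in 1.84% of all genes. Dnajb9 was the 1 gene lower there by more than 0.5, at -0.58. Replicate 3 was the highest Pax7-GFP array for 14 of the 29 genes (48.3%), against 29.7% of all genes. Among genes outside the list, Hspa4l, a further Hsp110 relative, read 7.09, 7.46 and 8.14 in Pax7-GFP arrays. Ahsa1, an activator of Hsp90 named after its values were seen, read 8.45, 8.20 and 8.87. Not all such partners shared this. The Hsp70 cofactor Sil1 read 8.57, 8.03 and 7.72, and the Hsp90 co-chaperone Fkbp4 read 9.88, 9.43 and 9.71. Herpud1, an ER stress gene, was lowest in replicate 3, at 9.88, 9.32 and 8.50. Other ER folding genes were highest there, such as Dnajb11 (7.99, 8.31 and 8.70) and Creld2 (8.49, 8.80 and 8.92). These genes were picked from their lists and do not give the direction of a list.

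**Figure D3:**
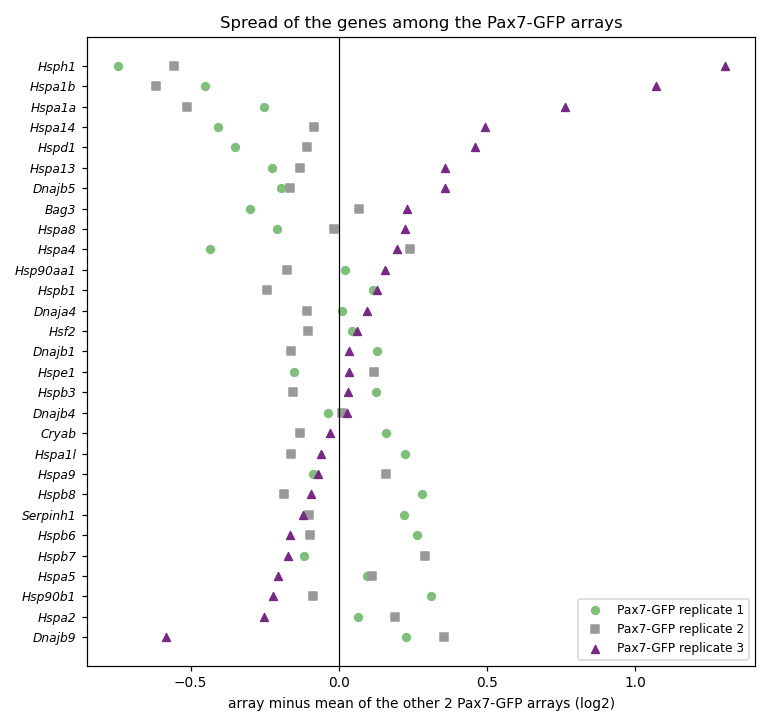
Each Pax7-GFP array minus the mean of the other 2 (x axis, log2) for the 29 genes, sorted by replicate 3. Replicate 3 (triangles) reaches 1.30 for Hsph1, 1.07 for Hspa1b and 0.76 for Hspa1a at the top and -0.58 for Dnajb9 at the bottom.

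Immediate early genes also moved with the groups. These genes answer to growth factors and to cell dissociation. In Pax7-GFP cells 13 of 15 were called higher and 1 lower, with a median of 2.49, where 7.34% and 7.15% of all genes were. Egr1 and Fos, transcription factors of this class, rose by 5.91 (SE 0.14) and 4.34 (SE 0.18), and Klf4, which is also a pluripotency factor, fell by 1.63 (SE 0.17). Summed over the 15, the linear signal ran from 3482 to 3791 over ES arrays and from 15640 to 21790 over Pax7-GFP arrays, with replicate 3 the lowest of the Pax7-GFP arrays. Replicate 3 was the highest Pax7-GFP array for 0 of the 15 genes, against 29.7% of all genes. Whether ES cells went through the sorter is not given, and the part of these responses in the chaperone values was not tested.

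Genes that work with the chaperones were divided as well, with many small differences toward lower values. For comparison, 41.1% of all genes passed the adjusted p (19.7% higher, 21.4% lower), and 14.5% were called (7.34% higher, 7.15% lower). Of 12 measured Hsp90 co-chaperones, 1 was called higher and 3 lower, and 11 passed the adjusted p (2 higher, 9 lower), with a median of -0.63. Sugt1, a co-chaperone of Hsp90, fell by 1.51 (SE 0.16), while Smyd1, a muscle methyltransferase that works with Hsp90 on myosin, rose by 1.48 (SE 0.14). Of 13 subunits of the cytosolic chaperonin CCT and of prefoldin, 10 were past the adjusted p and lower and 0 higher (1 higher at an unadjusted p below 0.05), with 1 called, the prefoldin subunit Pfdn1 at -1.16 (SE 0.11). Of 11 mitochondrial chaperones and proteases, 8 were past it and lower and 0 higher (also 0 higher at an unadjusted p below 0.05), with 1 called, the protease subunit Clpp at -1.20 (SE 0.099). Medians of these 2 lists were -0.38 and -0.60. Among 20 Hsp70 cofactors, 1 was called higher, Hspa4l at 1.38 (SE 0.23), and 1 lower, Dnajc6 (auxilin, which uncoats clathrin vesicles) at -3.07 (SE 0.095), with a median of 0.056. Without Pax7-GFP replicate 3 the called counts became 2 higher Hsp70 cofactors, 2 lower CCT and prefoldin genes and 1 lower gene of the collagen list, Crtap, which takes part in modifying collagen.

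Of 18 measured genes of ER folding and the unfolded protein response, 1 was called higher and 2 lower, with a median of -0.15. Herpud1, which serves ER-associated degradation, rose by 1.69 (SE 0.29), and Sdf2l1, a partner of Hspa5, fell by 1.83 (SE 0.26). Without Pax7-GFP replicate 1 the lower count was 1. In the list of small heat shock protein clients, their relatives and autophagy genes, 5 of 12 were called higher and 0 lower, with a median of 0.65 (limma, 1 lower at an unadjusted p below 0.05). Its largest rises were those of Des, the muscle intermediate filament bound by Cryab, by 4.46 (SE 0.096), and of Flnc, a filamin cleared through Bag3, by 3.74 (SE 0.14). Actn2, Ttn and Synpo2 were the other called genes. The autophagy genes Sqstm1 (0.28) and Map1lc3b (-0.31) were not called, and neither were Flna, Vim, Hspb9, Hspb11 and Cryaa. Over all genes, 7.34% were called higher and 7.15% lower.

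**Figure D4:**
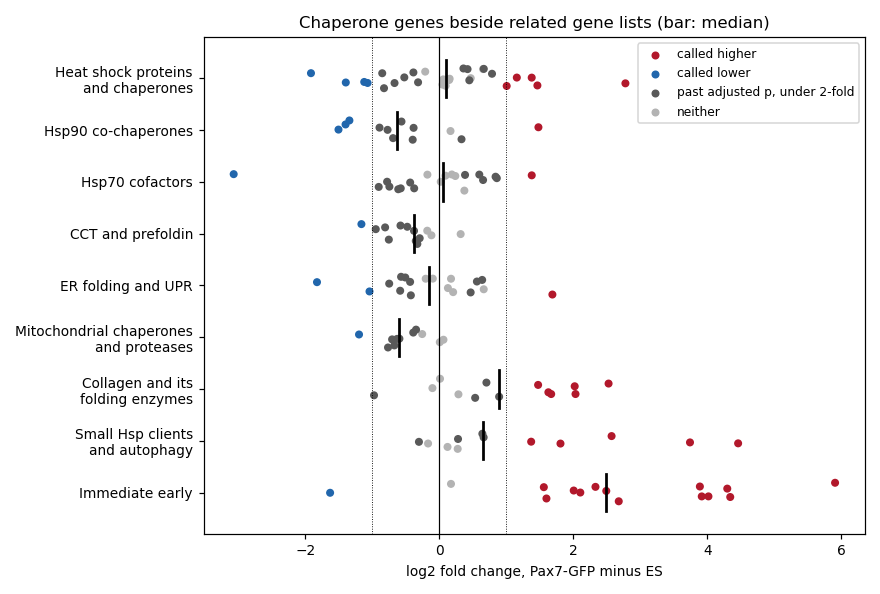
Log2 fold change, Pax7-GFP minus ES, of the 29 chaperone genes and of 8 related lists (rows), 1 point per gene coloured by call, with a bar at each list's median and dotted lines at a 2-fold difference. The chaperone genes spread to both sides around 0.095, the CCT and prefoldin and the mitochondrial lists lie at -0.38 and -0.60, and the immediate early list lies at 2.49.

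The groups matched their labels by markers. All 7 pluripotency markers were lower and all 7 markers of muscle progenitors and muscle were higher in Pax7-GFP cells, with medians of -4.41 and 5.07. Markers of other cell types went both ways. Called higher were 3 of 6 neural, 0 of 3 neural crest and glial, 1 of 4 endothelial, 0 of 4 haematopoietic, 0 of 5 cardiac and smooth muscle and 1 of 4 epithelial genes. In the same order, 2, 1, 1, 1, 2 and 2 were called lower. Over all genes, 7.34% were called higher and 7.15% lower. Within-group correlations across genes were 0.997 in ES and 0.987 to 0.993 in Pax7-GFP arrays.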

How the data were processed

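Per the submitters' processing notes, the authors made RMA signals in R 2.12.1; the deposited values are log2 signals, 1 per probe set and array. No source used here states the probe set definition, the RMA options or the genome build. The labels' protocols describe a double amplification, which can favour 3' ends, and RMA compresses folds near background. Names of probe sets came from the platform's annotation in GEO. Each gene was read from its brightest probe set by mean signal, among rows with 1 symbol (22180 genes, none filtered). Groups were compared with limma 3.58.1 in R 4.3.3 (lmFit, eBayes, two-sided) and Benjamini-Hochberg adjustment over all genes. The fit was first tested on simulated data. Titles call the replicates biological without saying how cultures were kept apart, so the p-values reflect only how these samples spread. The precision is limited by 3 arrays per group. The genes and lists were chosen with earlier results of these data known. Called genes and compared pairs were given in full. List genes were named by rule (the 2 largest called changes and the largest in the other direction). Some others, such as Dnaj genes and those of the small heat shock protein client list, were named after their values were seen. Of 8 planned pairs, 4 lacked a measured gene. Same-numbered arrays of the groups correlated at -0.11, -0.22 and 0.007 in their deviations, so numbers were not treated as pairs.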

Additional observations from a re-analysis of the deposited data

How the results depend on the processing

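The 9 calls were recomputed under other scalings and probe set rules, with low signals floored or dim genes dropped, with weighted arrays, a trended prior or a replicate block, and without single arrays. Hspb6 and Hspb1 were the calls lost in any of these. Hspb6 stood at 0.98 with each array centred on its median, at 0.96 with array weights, and below 1 without any of 3 single arrays, and Hspb1 at -0.71 with its lowest probe set. Hspd1 was gained without Pax7-GFP replicate 3. The count of genes past the adjusted p alone, 20 in the main fit, ran from 16 to 22 under these settings. The replicate block left 9 called (5 higher, 4 lower) and changed no call, though Hspa1a, at an unchanged 0.47, came to an adjusted p of 0.0366. Fold thresholds changed the counts because they change what is called. With no fold required, 20 of the 29 were called (10 higher, 10 lower) among 9126 of all genes. At a 4-fold minimum 1 was called (1 higher, 0 lower) among 1010. In limma's test against a 2-fold difference 3 were called (2 higher, 1 lower) among 1713. Sign changes occurred only in values that were not called. Averaging the probe sets of Hspa1l gave -0.040, and taking the lowest gave -0.17. Leaving out single arrays gave -0.0017 to 0.21 for Hspb7, -0.047 to 0.11 for Hspb8 and -0.29 to 0.012 for the difference between Hspa1a and Hspa1b. The dim-gene filter left 25 of the 29 genes, and the other 4 have no value under it. The lower ER count was 1 with quantile normalization and with array weights.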
